A study of Homo sapiens with 6 samples.

Results

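The genes described here are 40 that encode SR proteins, hnRNPs, core splicing factors and the arginine methyltransferases PRMT1 and PRMT5. They were chosen by name, and all 40 were found among the 63677 genes of the deposited count table. SRSF8, SRSF10 and HNRNPH2 each had a pair of identifiers, of which the one with more counts was kept, and the other held 0 counts. All 40 passed the filter on low counts and are among the 15949 genes tested. RNA was measured in RPMI-8402, an established T-cell acute lymphoblastic leukaemia (T-ALL) line. All cells stably carried Cas9 and grew in serum free of tetracycline. The control group received DMSO, the solvent, and its genotype label reads control. The other group received doxycycline (DOX), which switches on guide RNAs. On the target the labels differ: guides to both MYC and MYCN in the series text, MYC in the treatment text, and MYCN_knockout as the genotype of DOX samples. Cells were harvested at 72 hours, with 3 libraries per group. DMSO 11, DMSO 23, DMSO 35, DOX 12, DOX 24 and DOX 36 are the library names used here, each a group with its count column's number. DOX without guides was not analysed here, so the responses to the drug and to the guides cannot be told apart.

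Introns are removed from pre-mRNA by the spliceosome, which is built from small nuclear ribonucleoproteins (snRNPs) and many other proteins. SR proteins, which carry arginine and serine repeats, bind exonic enhancers and promote the use of nearby splice sites, while hnRNPs often bind silencers and oppose them. U2AF and the SF3 complexes recognise the end of the intron, and PRPF8 sits at the catalytic centre. PRMT5 methylates Sm proteins, which form the ring of the spliceosomal snRNPs, and PRMT1 methylates many RNA-binding proteins. MYC is known to raise transcription of several of these genes in other cell types, among them SRSF1, HNRNPA1, HNRNPA2B1, PTBP1 and PRMT5. Many SR genes and some hnRNP genes regulate their own RNA through poison exons, which send a transcript to decay. A count per gene adds up productive and poison transcripts and does not separate them.

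MYC and MYCN with their partner MAX bind the E-box hexamer CACGTG, so the promoters of the members were searched for it. The promoter table from RefSeq (GRCh38.p14) covers 250 bases before to 50 after each annotated start and held an entry for 36 of the 40 members. The table has none for HNRNPA1, SF3B3, SRSF2 or TRA2A. CACGTG, which reads the same on both strands, was present for 7 of the 36 members (19.4%), against 8.77% of all 27305 genes in the table. Counted by promoter, it was in 8 of 51 member promoters and in 2548 of all 35116 promoters (7.26%). The median GC content was 64.0% in 51 member promoters and 58.7% in all promoters. The related hexamer CACGCG, searched on both strands, was present for 12 of the 36 members (33.3%) and for 13.5% of all genes. The upstream E-boxes of 6 members follow with up to 27 bases on each side, because they are the stretches where the targeted factors could bind. Capitals mark CACGTG. The windows are HNRNPA3 at chr2:177212696-177212755 (plus strand), HNRNPD at chr4:82373992-82374045 (minus), HNRNPH2 at chrX:101408153-101408212 (plus), HNRNPH3 at chr10:68331616-68331675 (plus), HNRNPM at chr19:8444906-8444965 (plus) and SF3B1 at chr2:197435104-197435163 (minus).
HNRNPA3: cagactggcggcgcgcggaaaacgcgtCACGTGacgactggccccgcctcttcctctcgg
HNRNPD: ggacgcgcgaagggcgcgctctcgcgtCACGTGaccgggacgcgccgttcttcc
HNRNPH2: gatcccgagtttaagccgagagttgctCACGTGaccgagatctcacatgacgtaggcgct
HNRNPH3: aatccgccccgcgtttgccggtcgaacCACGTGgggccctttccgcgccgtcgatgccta
HNRNPM: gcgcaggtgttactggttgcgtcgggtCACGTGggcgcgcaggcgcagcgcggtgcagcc
SF3B1: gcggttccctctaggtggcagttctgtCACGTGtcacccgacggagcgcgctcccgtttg
The hexamer begins 71 bases before the start in HNRNPA3, 27 in HNRNPD, 42 in HNRNPH2, 50 in HNRNPH3, 42 in HNRNPM and 43 or 108 in SF3B1, which has 2 annotated starts. HNRNPH2 holds another CACGTG 9 bases before its start. In the seventh gene, HNRNPUL1, it lies 23 bases after a start. A match of letters does not show binding.

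PRMT5 (chromosome 14) was the 1 member called by any test over all 6 libraries. Neither hexamer is in its 300-base promoter window. The 250 bases before its start are chr14:22929377-22929626 on the minus strand.
PRMT5: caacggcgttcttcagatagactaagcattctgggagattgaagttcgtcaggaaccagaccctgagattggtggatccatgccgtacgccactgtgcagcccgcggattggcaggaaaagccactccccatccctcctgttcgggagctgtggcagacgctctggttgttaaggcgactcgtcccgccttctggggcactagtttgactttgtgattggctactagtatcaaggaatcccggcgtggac

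Library totals ran from 28602145 to 29204148 counts. Levels are given as CPM, for which each library's counts were scaled to its total times its TMM factor. MYCN stood at 76.8, 109.5 and 86.9 CPM in DMSO 11, 23 and 35 and between 46.2 and 53.7 CPM in the DOX libraries. MYC stood at 279, 201 and 256 CPM in DMSO and at 206, 200.5 and 193 CPM in DOX, with overlapping groups. Neither passed edgeR's quasi-likelihood test (adjusted p = 0.0726 and 0.176), and DESeq2 called MYCN lower (adjusted p = 7.92e-06). Of 17 T-ALL markers, 13 had a mean of at least 1 CPM, among them LCK, CD3E and TAL1, while CD4, CD8A, CD8B and CD1A were below 0.5 CPM. The summed T-ALL markers were lower in every DOX library, at 2319 to 2442 CPM in DMSO and 2190 to 2247 CPM in DOX. Summed markers of B cells stayed at or below 7.93 CPM, of myeloid cells at or below 1.53 CPM and of erythroid cells at or below 0.383 CPM, with MS4A1 and CD33 at 0. Summed markers of fibroblasts or epithelium, mostly COL1A1, were at 2.87 to 7.11 CPM in DMSO and 9.46 to 10.4 CPM in DOX. The labels do not tell whether replicates were separate cultures, and p-values here measure a spread between libraries that may be technical. The part that this marker shift plays in any result was not tested, and fewer cells of a type cannot be told apart from less RNA per cell. With 3 libraries against 3, a two-sided exact permutation test cannot go below p = 0.1.

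No SR protein, hnRNP or core factor was called in either direction over all 6 libraries, and of the arginine methyltransferases PRMT5 was called lower by DESeq2 and PRMT1 by no test. Over all 6 libraries, edgeR's quasi-likelihood test called 0 of the 40 members at an adjusted p of 0.05, where it called 0.0313% of all genes (0.0125% higher and 0.0188% lower). At an unadjusted edgeR p under 0.05 there were 6 members, 4 of them higher in DOX (SRSF4, HNRNPA0, HNRNPH2 and U2AF1) and 2 lower (PRMT1 and PRMT5), against 26% of all genes (11.2% higher and 14.8% lower). DESeq2 called 1 member, PRMT5, against 10.2% of all genes with an adjusted p, and limma voom called 0 members. In the authors' deposited table PRMT5 alone of the members had an adjusted p of at most 0.05, against 9.57% of the genes with one there. The log2 fold change of DOX over DMSO was positive for 31 members and negative for 9, with a median of 0.18 and a range of -0.42 to 0.52. The median over all genes tested was -0.0031, and 49.7% of them were positive.

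The members' median level varied with an SD of 0.234 on the log2 scale over the DMSO libraries, more than the median fold change of 0.18. DMSO 11 was the highest DMSO library in 38 of the 40 members, all but SRSF10 and PRMT5. The same was so in 40.8% of all genes tested and in 54.5% of the 2580 genes whose mean reached 100 CPM. The members' median deviation from the mean of the 6 libraries, in log2 CPM, was 0.21 in DMSO 11, -0.23 in DMSO 23 and -0.16 in DMSO 35. In the DOX libraries it was 0.09, 0.14 and 0.04. In the heat map of the members by library, the DOX medians thus lie between DMSO 11 and the other DMSO libraries. Against DMSO 11 alone the median difference of the DOX mean was -0.11 and 31 members were below it, while against the mean of DMSO 23 and DMSO 35 it was 0.30 and 35 members were above.

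**Figure D1:**
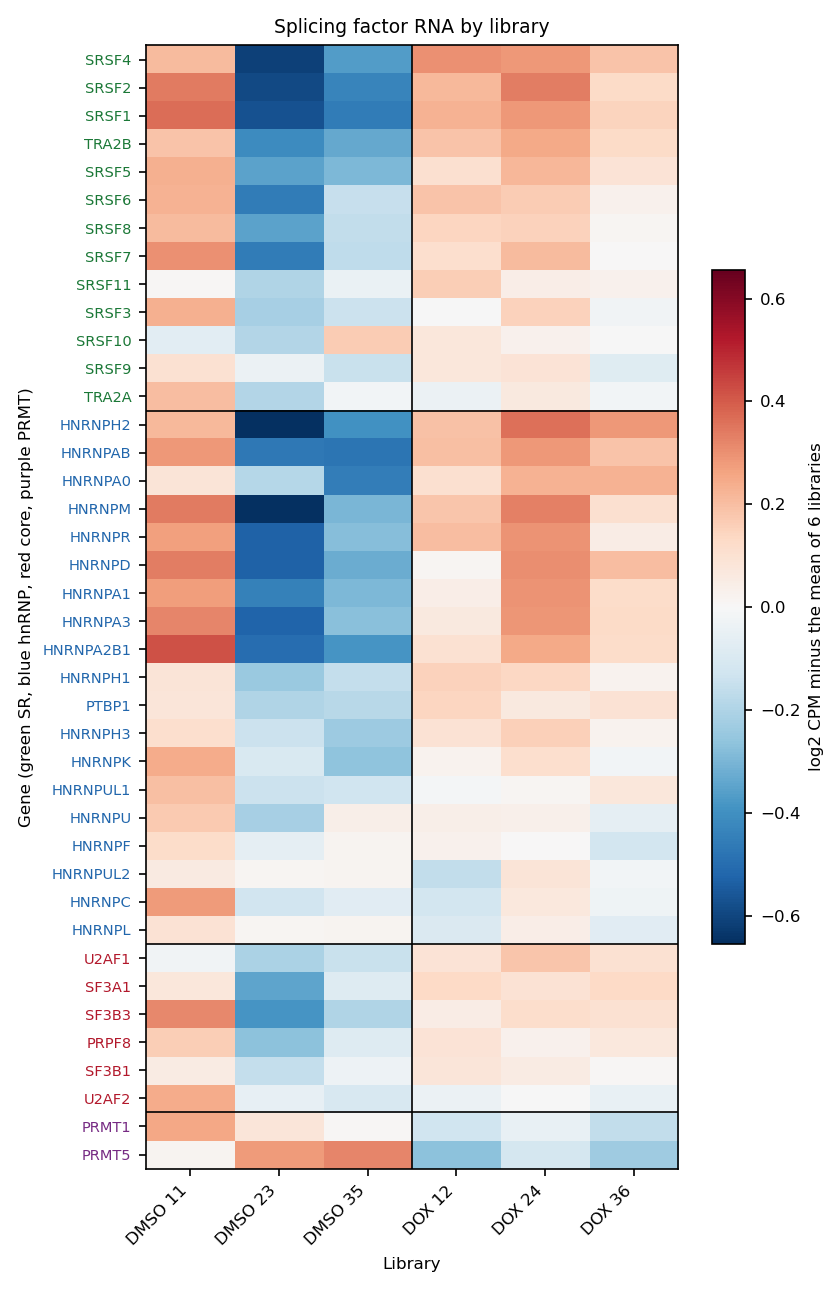
Heat map of 40 splicing genes (rows, grouped by role and ordered by fold change) in 6 libraries (columns). Colour is log2 CPM minus the gene's mean over the libraries, and most rows are blue in DMSO 23 and DMSO 35 and red in DMSO 11 and the DOX libraries, with PRMT1 and PRMT5 blue in DOX.

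Without DMSO 11, edgeR called 27 members higher and 1 lower in DOX, in a fit that called 49.4% of all genes (23.7% higher and 25.7% lower). Each adjusted p from this fit given below is to be read beside that share. The members' median was 0.30 there, and it was 0.08 without DMSO 23 and 0.15 without DMSO 35. Each of the other 5 left-out fits called 0 members, and 0 of all genes. The plot of fold changes with and without DMSO 11 shows that leaving out this library moved 38 members upward and moved SRSF10 and PRMT5 downward.

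**Figure D2:**
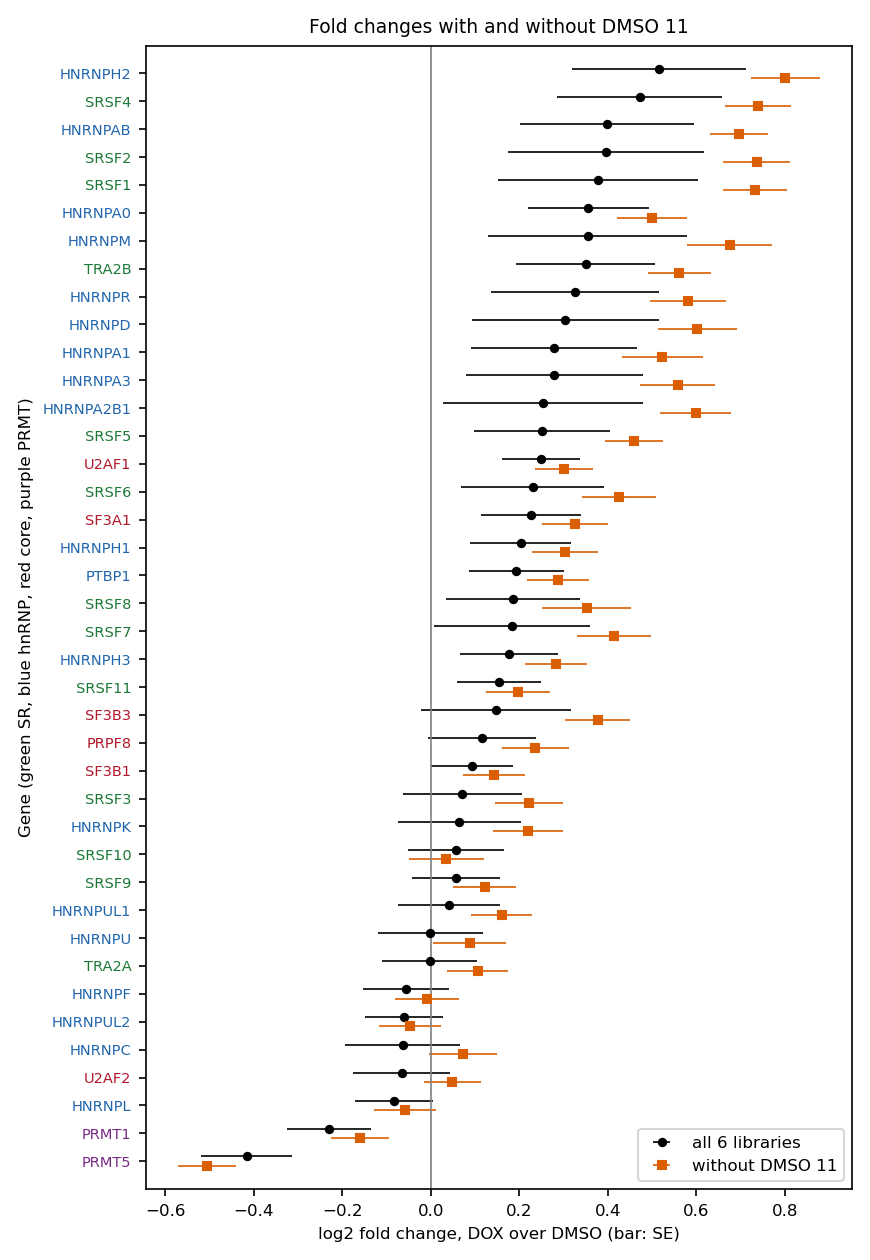
log2 fold change of DOX over DMSO for 40 genes with all 6 libraries (black circles) and without DMSO 11 (orange squares), where bars are standard errors. With all libraries the values run from -0.42 (PRMT5) to 0.52 (HNRNPH2), and without DMSO 11 from -0.51 to 0.80.

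Among the SR proteins, 12 of 13 fold changes were positive and 0 members were called by edgeR or DESeq2. Their summed level was 4714, 3268 and 3612 CPM in DMSO 11, 23 and 35 and 4484, 4641 and 4238 CPM in DOX 12, 24 and 36. The DOX libraries are thus close together, and the DMSO libraries lie on both sides of them. Per exon length (RPKM, mean of all libraries), SRSF1 and SRSF3 had the highest levels of the family at 132 and 119. SRSF4 and TRA2A had the lowest, at 18.9 and 25.9, among the 12 SR genes with a known exon length. The length is the union of all annotated exons, so these ranks depend on the annotation. In mean CPM, SRSF4 stood at 168, TRA2A at 91.2 and SRSF8, which has no known length, at 14.2.

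SRSF1 (chromosome 17), which binds purine-rich exonic enhancers and acts as an oncogene, stood at 553, 289 and 313 CPM in DMSO and at 503, 522 and 475 CPM in DOX. DMSO 11 was above all DOX libraries, and the other DMSO libraries were far below them. Its log2 fold change was 0.38 ± 0.23 (SE, n = 3 per group; edgeR adjusted p = 0.308). It was 0.21 without DMSO 23 and 0.24 without DMSO 35, and neither passed edgeR's test. Without DMSO 11 it was 0.73 ± 0.07, which passed edgeR's test (adjusted p = 1.09e-07), as did 49.4% of all genes in that fit.
SRSF3 (chromosome 6), the smallest classical SR protein, which also helps to export mRNA, stood at 991, 725 and 764 CPM in DMSO and 841, 936 and 829 CPM in DOX. The groups overlapped, and DMSO 11 was again the highest library. Its fold change was 0.07 ± 0.14 on the log2 scale, -0.017 without DMSO 23 and 0.22 without DMSO 11 (edgeR adjusted p = 0.0214). SRSF6 (chromosome 20), a regulator of alternative exons, stood at 400.2, 249 and 308 CPM in DMSO and 390, 384 and 348 CPM in DOX, a log2 fold change of 0.23 ± 0.16. It was 0.08 without DMSO 23 and 0.42 without DMSO 11 (edgeR adjusted p = 0.000386).

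SRSF4 (chromosome 1) had a fold change of 0.47 ± 0.19 (edgeR adjusted p = 0.163, DESeq2 0.107), the largest of the SR genes over all libraries. It was 0.31 without DMSO 23 and 0.74 without DMSO 11, where SRSF2 was also at 0.74 and SRSF1 at 0.73. It stood at 189, 107 and 127 CPM in DMSO and at 201, 199 and 186 CPM in DOX, so that only DOX 36 fell below DMSO 11. SRSF11 (chromosome 1), an SR-related protein found with U2AF, was the 1 SR gene whose groups did not overlap. It stood at 393, 341 and 379 CPM in DMSO and 437, 403 and 399 CPM in DOX, a log2 fold change of 0.16 ± 0.09 (edgeR adjusted p = 0.316), against 0.09 without DMSO 23 and 0.20 without DMSO 11 (adjusted p = 0.0296). TRA2A (chromosome 7), a relative of the SR proteins that binds GAA-rich enhancers, stood at 105, 79.6 and 89.7 CPM in DMSO and 88.6, 95.02 and 89.8 CPM in DOX. Its fold change was -0.0026 ± 0.11, while its close relative TRA2B was at 0.35 ± 0.16, and their difference was not tested.
The other SR genes overlapped between groups. Their log2 fold changes were 0.40 for SRSF2, 0.25 for SRSF5, 0.19 for SRSF8, 0.18 for SRSF7 and 0.06 for SRSF9 and SRSF10. SRSF8, an intronless copy of SRSF2, had the lowest counts of all members, at 11.1 to 16.3 CPM. SRSF10, which acts as a repressor when it is dephosphorylated, was the SR gene in which DMSO 35 was the highest library, at 401 CPM.

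The hnRNPs held the most abundant members. Their summed level was 18734, 12728 and 13569 CPM in DMSO and 16426, 18043 and 16585 CPM in DOX. In all 19 hnRNP genes DMSO 11 was the highest DMSO library, and in 10 of them it was the highest of all 6 libraries. Fold changes were positive for 14 and negative for 5, with a median of 0.20, and 0 were called by edgeR or DESeq2.

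HNRNPA1 (chromosome 12), which binds UAGG-like silencers, counters SRSF1 at many exons and shuttles to the cytoplasm, was the most abundant member at a mean of 699 RPKM. It stood at 4225, 2573 and 2851 CPM in DMSO and 3608, 4289 and 3805 CPM in DOX. DMSO 11 lay inside the DOX range and the other DMSO libraries lay below it. The log2 fold change was 0.28 ± 0.19 (edgeR adjusted p = 0.361), against 0.14 without DMSO 23 and 0.52 ± 0.09 without DMSO 11 (adjusted p = 8.91e-05). Rows named as copies of HNRNPA1 numbered 84, of which 60 held counts, and together they came to 93.2 CPM or 2.62% of the HNRNPA1 level, so reads shared with these copies make its value uncertain. The same limit holds for HNRNPA3, where 13 of 16 copies held counts (1.93% of its level), and HNRNPC, where 8 of 12 did (0.973%).
HNRNPA2B1 (chromosome 7), a close relative that also reads methylated RNA and sorts small RNAs, stood at 2224, 1179.7 and 1276 CPM in DMSO and 1786, 1981 and 1814 CPM in DOX. DMSO 11 was the highest library and DMSO 23 the lowest. The fold change was 0.25 ± 0.23 on the log2 scale, 0.09 without DMSO 23 and 0.60 ± 0.08 without DMSO 11 (edgeR adjusted p = 4.88e-06). PTBP1 (chromosome 19), which represses exons flanked by pyrimidine tracts, including an exon of pyruvate kinase, stood at 820.1, 677 and 684 CPM in DMSO and 854, 812 and 827 CPM in DOX. DOX 24 lay just below DMSO 11, and the fold change was 0.19 ± 0.11 (edgeR adjusted p = 0.278). It was 0.14 without DMSO 23, 0.15 without DMSO 35 and 0.29 without DMSO 11 (edgeR adjusted p = 0.00226).

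The largest positive fold change of all members was that of HNRNPH2 (chromosome X), a binder of G-rich sequences, at 0.52 ± 0.20 (edgeR adjusted p = 0.153, DESeq2 0.0895). It stood at 118, 64.8 and 77.5 CPM in DMSO and 117, 131 and 124 CPM in DOX, and leaving out DMSO 23 gave 0.34, leaving out DMSO 11 0.80. Its paralogs HNRNPH1, HNRNPH3 and HNRNPF were at 0.20, 0.18 and -0.06. HNRNPA0 (chromosome 5), which stabilises certain mRNAs, was the hnRNP gene whose groups did not overlap. It stood at 373, 308 and 257 CPM in DMSO and 377, 411 and 412 CPM in DOX, a log2 fold change of 0.36 ± 0.14 (edgeR adjusted p = 0.154). It was 0.23 without DMSO 35 and 0.50 without DMSO 11 (edgeR adjusted p = 3.26e-05). HNRNPK (chromosome 9), a binder of C-rich sequences, was second in abundance per exon length at 236 RPKM. It stood at 1419, 1118 and 996 CPM in DMSO and 1218, 1294 and 1182 CPM in DOX, with a fold change of 0.06 ± 0.14, which was -0.046 without DMSO 35 and 0.22 without DMSO 11 (edgeR adjusted p = 0.0260). HNRNPUL2 (chromosome 11), the least abundant hnRNP gene per length at 31.0 RPKM, stood at 175, 169 and 169.9 CPM in DMSO and 150.1, 178 and 165 CPM in DOX. The DOX range held all DMSO values, and the fold change was -0.06 ± 0.09. HNRNPUL2 shares 2391 exonic bases with HNRNPUL2-BSCL2 on the same strand, so its rank per length is uncertain.
The other hnRNP genes overlapped between groups. HNRNPAB was at 0.40, HNRNPM at 0.35, HNRNPR at 0.33, HNRNPD at 0.30 and HNRNPA3 at 0.28 on the log2 scale, and each of these 5 was at 0.56 to 0.70 without DMSO 11. HNRNPUL1 at 0.04, HNRNPU at -0.0018, HNRNPC at -0.06 and HNRNPL at -0.08 made up the rest. HNRNPU and TRA2A turned positive under 4 other filters, scalings or tests. All 6 genes whose upstream E-boxes are printed had a positive fold change, from 0.09 to 0.52, and overlapping groups. HNRNPUL1, whose CACGTG lies after a start, was at 0.04, also with overlapping groups. Over all 40 members 31 were positive. The median fold change was 0.28 over the 7 members with CACGTG and 0.18 over the other matched members. For CACGCG it was 0.19 with and 0.18 without.

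**Figure D3:**
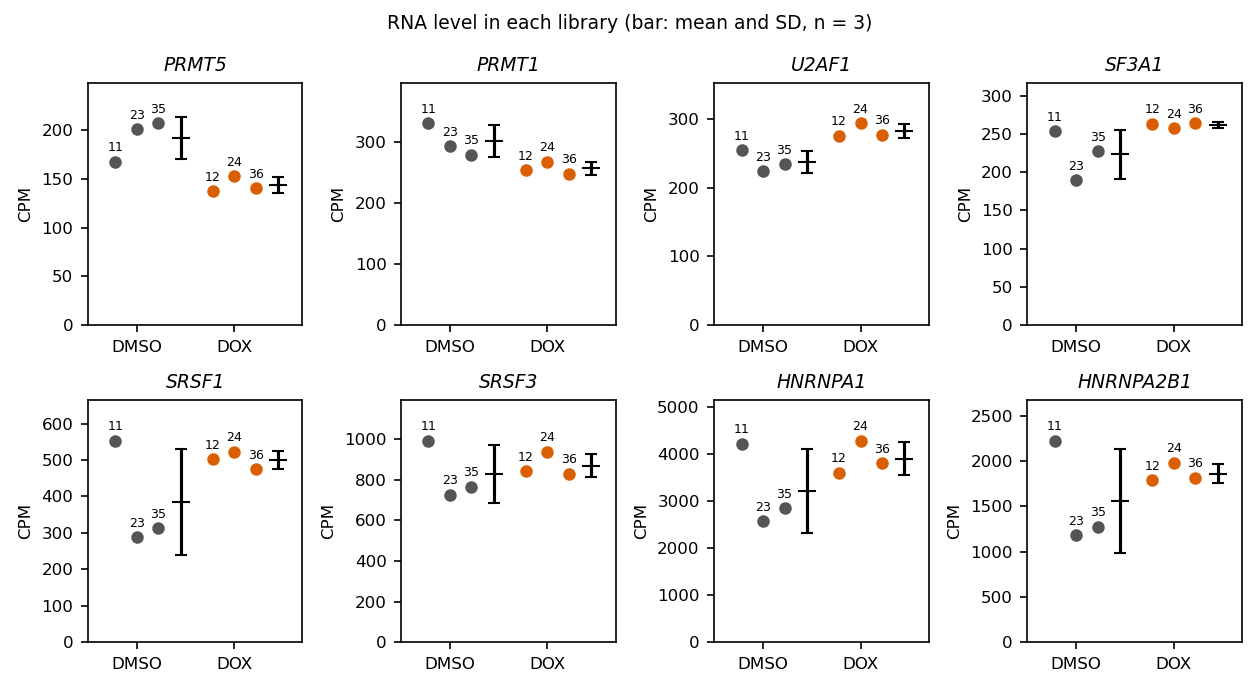
CPM in each library for PRMT5, PRMT1, U2AF1, SF3A1, SRSF1, SRSF3, HNRNPA1 and HNRNPA2B1, with axes from 0, points numbered by library and bars for the mean and SD (n = 3). DOX points lie below all DMSO points for PRMT5 and PRMT1 and above them for U2AF1 and SF3A1, while in the lower row DMSO 11 stands apart from DMSO 23 and DMSO 35.

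Of the 6 core factors, 5 had a positive fold change, and 2 had DOX above DMSO in all libraries, as had 14.6% of all genes. U2AF1 (chromosome 21), which reads the AG at the end of the intron, stood at 255, 224 and 234 CPM in DMSO and 276, 294 and 277 CPM in DOX. All DOX libraries were above all DMSO libraries, DMSO 11 included. The log2 fold change was 0.25 ± 0.09 (edgeR adjusted p = 0.135, DESeq2 0.110) and ran from 0.20 to 0.30 as each library was left out. Without DMSO 11 U2AF1 passed edgeR's test (adjusted p = 0.000825), as did 49.4% of all genes in that fit. Its partner U2AF2 (chromosome 19), which binds the pyrimidine tract, stood at 409, 333 and 322 CPM in DMSO and 337, 345 and 335 CPM in DOX, a fold change of -0.07 ± 0.11. The difference between the U2AF subunits was not tested.
SF3A1 (chromosome 22), a U2 snRNP protein, stood at 254, 190 and 227 CPM in DMSO and 263, 257 and 264 CPM in DOX. Its groups did not overlap, and the fold change was 0.23 ± 0.11 (edgeR adjusted p = 0.236). It was 0.12 without DMSO 23 and 0.33 without DMSO 11, which passed edgeR's test (adjusted p = 0.00111), as did 49.4% of all genes in that fit. PRPF8 (chromosome 17), the scaffold of the catalytic centre, stood at 948, 703 and 799 CPM in DMSO and 903, 864 and 889 CPM in DOX, a fold change of 0.12 ± 0.12, which was 0.016 without DMSO 23 and 0.24 without DMSO 11 (edgeR adjusted p = 0.0142). SF3B1, which holds the branch point and is mutated in some leukaemias, was at 0.09 and SF3B3 at 0.15, both with overlapping groups.

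PRMT5 (ENSG00000100462) stood at 167, 201 and 207 CPM in DMSO 11, 23 and 35 and at 137, 153 and 141 CPM in DOX 12, 24 and 36. All DOX libraries were below all DMSO libraries, and DMSO 11 was the DMSO library nearest to them. The DOX mean was 144 ± 8.12 CPM (SD, n = 3), 74.9% of the DMSO mean of 192 ± 21.3 CPM. The log2 fold change was -0.42 ± 0.10. DESeq2's Wald test called it (adjusted p = 0.0124), as did the authors' deposited DESeq2 table (adjusted p = 0.0128). That table holds the same DESeq2 log2 fold change, -0.42, from the same libraries, so it is not separate evidence. By contrast, edgeR's quasi-likelihood test did not call PRMT5 (adjusted p = 0.0926), except with no filter on low counts (adjusted p = 0.00740). Over all genes it called 1761 with no filter and 5 with the filter. Leaving out each library in turn gave -0.51 to -0.36, and edgeR called the gene without DMSO 11 (-0.51 ± 0.07, adjusted p = 2.86e-06) but not without any of the others (adjusted p = 0.264 to 0.344). The fit without DMSO 11 called 49.4% of all genes. DOX was lower than DMSO 11 alone by 0.22 in log2 CPM.
PRMT1 (chromosome 19), the main source of asymmetric arginine dimethylation, stood at 331, 293 and 279 CPM in DMSO and at 254, 268 and 248 CPM in DOX. Its groups did not overlap either, and here DMSO 11 was the library farthest from DOX. The log2 fold change was -0.23 ± 0.09 (edgeR adjusted p = 0.173, DESeq2 0.152) and ran from -0.29 to -0.16 as each library was left out.

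Groups without overlap were thus found in 4 members with DOX above (SRSF11, HNRNPA0, U2AF1 and SF3A1) and 2 with DOX below (PRMT1 and PRMT5). Over all genes this was so for 14.6% above and 15.6% below, 30.2% in all, so the members' share of 6 in 40 is under that of all genes.

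Another 167 genes of the splicing pathway, in 11 lists by role, place these values beside the rest of the machinery. Of the 164 tested, edgeR called 0, with 12 higher and 20 lower at an unadjusted p under 0.05, where 11.2% of all genes were higher and 14.8% lower. DESeq2 called 1 higher and 9 lower, against 3.2% and 7.05% of all genes. The edgeR adjusted p of these 10 ran from 0.0851 to 0.107. Their median log2 fold change was 0.02, and 92 were positive. In the plot of gene groups, the medians of the SR, hnRNP and core members and of the SR-related proteins lie to the right of most other lists.

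**Figure D4:**
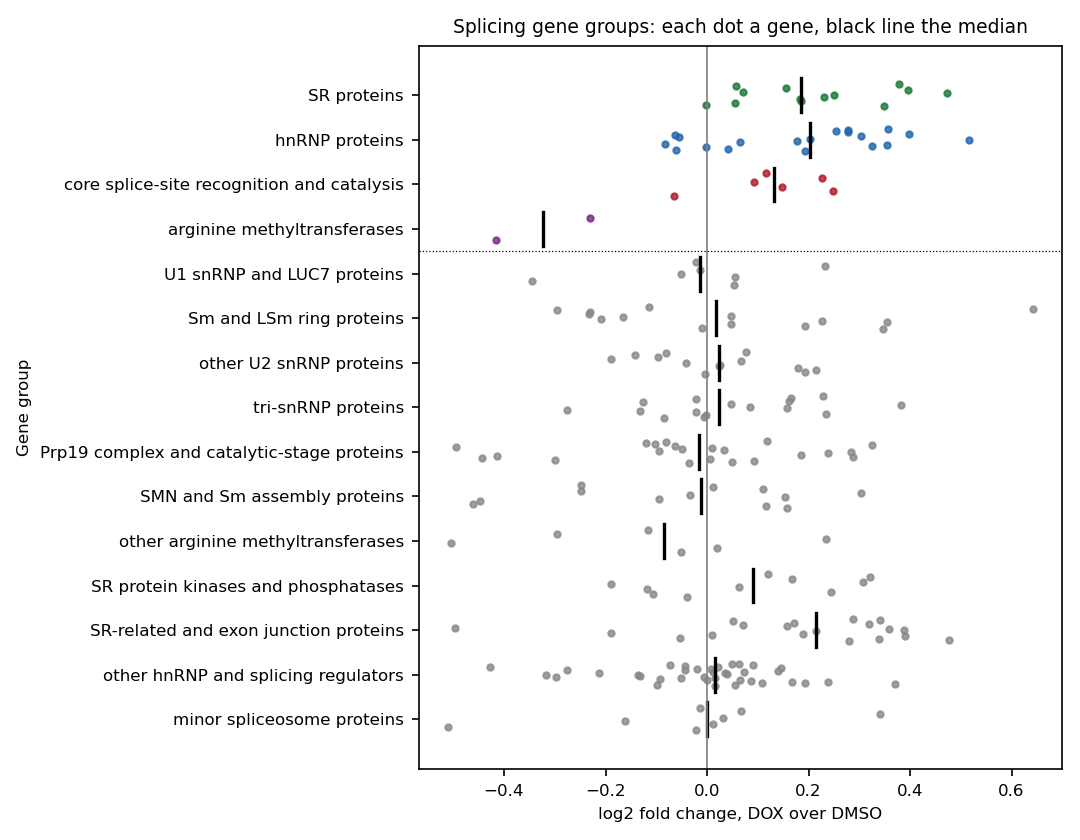
log2 fold change of DOX over DMSO by gene group, with each dot a gene, black lines for medians, and the members above the dotted line. Medians are 0.19 for SR proteins, 0.20 for hnRNPs, 0.13 for core factors, -0.32 for the pair PRMT1 and PRMT5, and between -0.08 and 0.21 for the 11 other lists.

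Among proteins that assemble the Sm ring, DESeq2 called 2 of 12 lower and 0 higher (median -0.01), against 7.05% and 3.2% of all genes. Fold changes were positive for 6 of the 12 and negative for 6. RIOK1, an adaptor that binds PRMT5, had a mean of 58.3 ± 7.89 CPM in DMSO and 42.8 ± 2.70 CPM in DOX (SD, n = 3), with all DOX libraries below DMSO, a log2 fold change of -0.45 ± 0.11 (DESeq2 adjusted p = 0.0171). SMN1, which loads Sm proteins onto snRNA, was at -0.46 ± 0.12 (DESeq2 adjusted p = 0.0233), and its near-identical copy SMN2 makes this value uncertain. The other PRMT5 partners of this list were picked out after their values were seen. CLNS1A, which presents Sm proteins to PRMT5, stood at 179.8, 184 and 180.1 CPM in DMSO and 143, 162 and 153 CPM in DOX (-0.25 ± 0.08, DESeq2 adjusted p = 0.0753). WDR77, the obligate partner of PRMT5, was at 0.16 ± 0.12 and COPRS at 0.01 ± 0.12, both with overlapping groups.

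Of the 6 other arginine methyltransferases DESeq2 called 1, PRMT3, a methyltransferase of a ribosomal protein. It stood at 52.1, 64.6 and 63.8 CPM in DMSO and 43.1, 43.4 and 40.8 CPM in DOX, a log2 fold change of -0.50 ± 0.10 (DESeq2 adjusted p = 0.00278). The list's median was -0.08, and DESeq2 called 7.05% of all genes lower.

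In the snRNP lists single genes were called lower by DESeq2, which called 7.05% of all genes lower, and medians lay near 0. Calls this few are not a result about the lists. SNRPA, the U1 protein that binds a stem-loop of U1 RNA, was at -0.34 ± 0.08 (DESeq2 adjusted p = 0.00497), the 1 call of 7 in its list. LSM4, a U6 ring protein, was at -0.29 ± 0.08 (DESeq2 adjusted p = 0.0270), the 1 call of 14. PRPF6, which bridges the tri-snRNP, was at -0.28 ± 0.08 (DESeq2 adjusted p = 0.0265), the 1 call of 16. For each of these genes DMSO 11 was close to the other DMSO libraries: SNRPA stood at 224, 222 and 238 CPM in DMSO and 181, 181 and 177 CPM in DOX. LSM3, in the list of LSM4, was picked out after its values were seen. It had the highest log2 fold change of all 11 lists, 0.64 ± 0.25 (DESeq2 adjusted p = 0.0732). Its levels were 97.0, 47.7 and 50.1 CPM in DMSO and 102, 108 and 93.9 CPM in DOX, with overlapping groups. None of the 13 other U2 genes was called, with SF1 at -0.10 and U2SURP at -0.0037, the latter positive under the same 4 settings as HNRNPU.

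PRPF19, the ubiquitin ligase that activates the spliceosome, stood at 311, 386 and 363 CPM in DMSO and 253, 261 and 264 CPM in DOX. Its log2 fold change was -0.44 ± 0.10 (DESeq2 adjusted p = 0.00406), and it was the 1 call among 22 genes of its complex and the catalytic stage. ZMAT5, a protein of the minor spliceosome, was at -0.51 ± 0.14 (DESeq2 adjusted p = 0.0231), the 1 call of 8. Over all genes DESeq2 called 7.05% lower, so single calls are not a result about either list.

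SR-related and exon junction proteins were the list with a median closest to that of the SR members, 0.21, with 16 of 19 positive. DMSO 11 was the highest DMSO library in 16 of the 19, against 40.8% of all genes tested and 54.5% of those whose mean reached 100 CPM. Without DMSO 11 the median was 0.42, with 14 called higher and 2 lower. That fit called 23.7% of all genes higher and 25.7% lower. SRRM2, a large scaffold of nuclear speckles, stood at 916, 642 and 749 CPM in DMSO and 1085, 984 and 1140.0 CPM in DOX. All DOX libraries were above DMSO 11, the fold change was 0.48 ± 0.14, and DESeq2 called it higher (adjusted p = 0.0302). MAGOHB, a core protein of the exon junction complex with the near-identical paralog MAGOH, was called lower at -0.50 ± 0.14 (DESeq2 adjusted p = 0.0267), and its value is uncertain where the paralogs share reads.
Of the 10 SR protein kinases and phosphatases DESeq2 called 0 and the median was 0.09, with PPP1CA, a phosphatase, at 0.06 and SRPK1, which phosphorylates SR proteins in the cytoplasm, at -0.11. Of the 37 other hnRNP-like and regulatory genes it called 0 and the median was 0.02, with NONO, a paraspeckle protein, at 0.07.

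Some members share exonic bases with a gene on the opposite strand, and the strand setting of the counting was not given in the sources used here. The neighbours with the highest levels were CBX3 beside HNRNPA2B1 (299 CPM, 17.5% of the member's level), TGFB1 beside HNRNPUL1 (92.4 CPM, 15.2%), PHYKPL beside HNRNPAB (35.8 CPM, 12.9%), GATC beside SRSF9 (37.4 CPM, 12.3%) and MFSD11 beside SRSF2 (27.8 CPM, 10.1%). Reads in the shared bases of these pairs cannot be told apart here. Some members also share exonic bases with a gene on the same strand. HNRNPUL2 shares 2391 with HNRNPUL2-BSCL2 (3.78 CPM), and SRSF1 shares 1890 with RP11-159D12.5 (0.00584 CPM). HNRNPL shares 561 with AC104534.3, PRMT1 366 with ADM5 and HNRNPH2 362 with RPL36A-HNRNPH2. How reads in these bases were counted is not given in the sources used here. PRMT5-AS1, antisense to PRMT5, was at 0.561 CPM, 0.335% of the PRMT5 level.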

How the data were processed

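The authors deposited raw counts by gene. Their comparison table holds a mean normalised signal, log2 fold changes and their errors, a statistic used as a score, and p-values, per the file headers. Per the submitters' processing notes, the build was hg19 and the tools included DESeq2 1.12.4, STAR 2.5.2a and featureCounts. The strand setting and annotation release are not given in the sources used here. The count columns name the group and carry a number found in no label. The 92 spike-in rows held 0 counts and were left out. No 2 libraries agreed within sampling noise (mean chi-square per gene at least 4.56).

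Genes passing filterByExpr were scaled by TMM. The model of edgeR 4.0.16 in R 4.3.3 had a group term alone, its robust quasi-likelihood p-values were adjusted by Benjamini-Hochberg over 15949 genes, and calls were made at 0.05. The standard error is the log2 fold change divided by the square root of F. A prior count of 2 entered log2 CPM. DESeq2 1.42.0, on all genes, and limma 3.58.1 (voom) were alternatives, with other scalings and filters, a threshold of 0.01 and each library left out. The fits were tested on simulated data. RPKM used union exon lengths from GENCODE 29, matched by Ensembl ID (39 of 40 members). Its build differs from the authors', so no coordinates of it are printed.

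Members and lists were chosen with earlier results of these data known. Values per library are given for members called by edgeR, DESeq2 or the authors' table, members without overlap between groups, 8 genes of interest (SRSF1, SRSF3, SRSF6, HNRNPA1, HNRNPA2B1, PTBP1, PRMT1 and PRMT5), and the 2 most and 2 least abundant of each role by RPKM; HNRNPH2 was added for its fold change. From each list up to 4 genes called by DESeq2 are named, or the 2 with the highest CPM where none was called. LSM3 was added for its fold change. A gene that the rule selects is not reported here. Figures were drawn with matplotlib 3.10.9.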

Additional observations from a re-analysis of the deposited data

How the results depend on the processing

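The counts of called genes depended on the test, the filter and DMSO 11. The members called were 0 with edgeR, 1 with DESeq2 and 1 with no filter (PRMT5 in both, adjusted p = 0.00740 with no filter), and 0 to 28 as each library was left out, with 28 without DMSO 11. Of the other splicing genes 0 were called with edgeR, 10 with DESeq2, 12 with no filter (4 higher and 8 lower) and 0 to 83 as each library was left out. Over all genes the calls were 5 with edgeR, 1399 with DESeq2, 1761 with no filter, 1 at a threshold of 0.01, and 0 to 8109 as each library was left out. The members' median log2 fold change stayed between 0.08 and 0.30 over all alternatives run.

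Signs turned only for genes near 0. HNRNPU was at 0.0073 with a minimum of 1 CPM, 0.0059 with voom, 0.0034 with total count scaling and 0.032 with upper quartile scaling. TRA2A was at 0.0065, 0.0059, 0.0029 and 0.031 and U2SURP at 0.0053, 0.00032, 0.00063 and 0.030 under the same settings. With each library left out, values ran from -0.017 to 0.22 for SRSF3, -0.0054 to 0.12 for SRSF9, -0.024 to 0.16 for SRSF10, -0.14 to 0.073 for HNRNPC, -0.046 to 0.22 for HNRNPK, -0.10 to 0.087 for HNRNPU, -0.021 to 0.16 for HNRNPUL1, -0.12 to 0.0069 for HNRNPUL2, -0.10 to 0.11 for TRA2A, -0.13 to 0.049 for U2AF2, -0.081 to 0.057 for U2SURP and -0.013 to 0.14 for PPP1CA. The cause was not tested. No paired analysis was possible because the count columns carry none of the labels' replicate numbers.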
